A study of Mus musculus with 13 samples.

Results

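The 39 genes described here encode the enzymes and regulators that make fatty acids, triglycerides and cholesterol. They were taken by symbol from the gene table of a mouse RNA-seq study, which lists 15213 genes, and fall into 6 genes of fatty acid synthesis, 7 of elongation and desaturation, 5 of triglyceride assembly, 15 of cholesterol synthesis and 6 regulators. All 39 passed the filter on low values. The study compared mammary tumors that overexpress TSG101, a subunit of the ESCRT-I sorting complex, with normal mammary glands. The tumor group held 10 tumors of the genotype MtTA Teto-TSG101wt, in which the MMTV promoter drives a tetracycline-controlled transactivator that switches on a TetO-Tsg101 transgene in mammary epithelium as long as no doxycycline is given. The founders were made and bred in FVB/N mice and the tumors came from 6 mice, of which 3 gave 1 tumor, 2 gave 2 and 1 gave 3. The gland group held 3 glands, each from a different WT FVB mouse. Neither the ages nor the reproductive stage of these mice was given for the libraries, and no wild-type littermate or tumor-free transgenic gland was in the set.

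Fatty acids are built in the cytosol from acetyl-CoA, which ATP citrate lyase and acetyl-CoA synthetase supply, acetyl-CoA carboxylase commits and fatty acid synthase polymerizes. The chains are then lengthened and desaturated in the endoplasmic reticulum and joined to glycerol as triglyceride, while a separate branch from acetyl-CoA runs through mevalonate and squalene to cholesterol. Both branches are under the SREBP transcription factors, whose precursors SCAP escorts and INSIG retains in the endoplasmic reticulum. The secretory epithelium of the mammary gland uses the fatty acid branch heavily for milk fat, and the surrounding adipocytes use it to store fat.

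Promoter sequences are shown for 5 members because the groups they stand for moved in different ways. Fasn and Acss2 represent fatty acid synthesis, in which every member fell in tumors, and Insig1 the regulators that fell. Cyp51 is one of the genes of cholesterol synthesis that rose, and Hmgcs1 belongs to the larger number of that group that did neither. Each sequence is the 250 bases before a transcript start in RefSeq, on build GRCm38.p6, written 5′ to 3′ on the strand of the gene. The Fasn window lies inside the RefSeq span of the gene, which runs to 120825166, so its start is an internal one. The last bases of each promoter sequence were also looked for in transcripts of the gene. They were found for 36 of the 41 promoters of members, but not for Hmgcs1. Capitals mark CCAAT, the box bound by NF-Y, and CACGTG, an E-box, and TCACNCCAC, letters of a sterol regulatory element, each searched on both strands, so that CCAAT on the other strand reads ATTGG. The windows lie at chr11:120824548-120824797 on the minus strand for Fasn, chr2:155517793-155518042 on the plus strand for Acss2, chr5:28071162-28071411 on the plus strand for Insig1, chr5:4104698-4104947 on the minus strand for Cyp51 and chr13:119690101-119690350 on the plus strand for Hmgcs1.
Fasn: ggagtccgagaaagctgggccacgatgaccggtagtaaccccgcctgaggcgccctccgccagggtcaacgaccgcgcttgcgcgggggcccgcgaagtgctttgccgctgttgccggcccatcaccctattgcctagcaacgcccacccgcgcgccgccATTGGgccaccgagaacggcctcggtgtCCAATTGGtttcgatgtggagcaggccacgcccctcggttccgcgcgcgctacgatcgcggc
Acss2: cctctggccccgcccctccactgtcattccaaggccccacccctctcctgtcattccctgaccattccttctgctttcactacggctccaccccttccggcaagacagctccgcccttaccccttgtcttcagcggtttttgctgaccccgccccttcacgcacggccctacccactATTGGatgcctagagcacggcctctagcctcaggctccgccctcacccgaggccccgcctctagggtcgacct
Insig1: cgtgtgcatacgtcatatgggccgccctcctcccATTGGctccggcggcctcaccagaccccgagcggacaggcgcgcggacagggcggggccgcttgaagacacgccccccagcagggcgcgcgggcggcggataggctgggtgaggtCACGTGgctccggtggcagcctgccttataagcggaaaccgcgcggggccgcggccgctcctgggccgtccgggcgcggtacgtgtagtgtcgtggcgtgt
Cyp51: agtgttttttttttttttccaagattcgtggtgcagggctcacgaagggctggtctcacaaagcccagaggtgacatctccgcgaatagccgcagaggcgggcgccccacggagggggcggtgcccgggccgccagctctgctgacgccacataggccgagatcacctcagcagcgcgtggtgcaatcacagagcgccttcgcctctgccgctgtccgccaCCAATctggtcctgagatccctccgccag
Hmgcs1: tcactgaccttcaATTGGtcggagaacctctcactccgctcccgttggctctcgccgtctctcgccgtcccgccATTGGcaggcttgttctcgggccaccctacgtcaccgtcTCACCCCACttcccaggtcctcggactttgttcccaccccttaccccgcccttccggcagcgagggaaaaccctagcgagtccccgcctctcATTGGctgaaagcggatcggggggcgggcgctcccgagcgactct

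Of the 39 members, 31 had at least 1 promoter in the RefSeq table. CCAAT stood in a window of 23 of the 31 (74.2%), against 40.1% of the 9240 tested genes with a window and 33.9% of all 32851 promoters of the same length. It was found in 11 of 12 genes of cholesterol synthesis, 5 of 6 regulators, 4 of 6 genes of fatty acid synthesis, 2 of 4 of elongation and desaturation and 1 of 3 of triglyceride assembly. The Fasn window held 3 copies, of which one pair overlapped in CCAATTGG. The sterol regulatory element letters were found in 2 members, Hmgcs1 at -137 from the start and Mlxipl, against 1.22% of tested genes and 1.05% of all promoters. CACGTG was present in 7 members, Insig1 among them, against 10.02% of tested genes and 6.02% of all promoters. GGGCGG, the box bound by Sp1, stood in 23 members, against 65.2% of tested genes and 32.7% of all promoters. Some genes have several promoters in the table and a gene was counted when any window held the letters. These matches describe letters in the windows and were not measured as binding. Only the exact letters were searched, so a window without a match was not shown to lack such an element.

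The libraries held between 6176269 and 16835397 reads assigned to genes in tumors and between 11672487 and 23889042 in glands, and the lowest read count of any member in any library was 23, for Acacb. Values are normalized cpm, read counts scaled per library by the authors. They sum to 790314 in tumor 4 and 1.42e+06 in gland 3, so the scaling was not to total reads alone. Reads of Rn45s, the ribosomal RNA precursor, made up 0.456% to 27.4% of tumor libraries, highest in tumor 9, and 0.296% to 4.35% of gland libraries. Tsg101 itself stood at 66.5 ± 15.5 normalized cpm in tumors (SD, n = 10) and 53.2 ± 7.68 in glands (SD, n = 3), with a log2 fold change of 0.30 (limma adjusted p = 0.296), and reads of the transgene were not separated from those of the endogenous gene. The labels name more than one sequencing facility and the study's methods name 1, and which library went where was not given, so no value within a facility could be had. Epithelial markers were present in both groups, with summed levels of 3267 to 4773 normalized cpm in tumors and 2168 to 4523 in glands.

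Within the 39 members, falls of more than 2-fold lay in every role group except cholesterol synthesis, and no test compared the groups. Of the 39 members, 18 fell and 2 rose in tumors by more than 2-fold at an adjusted p below 0.05, and 19 did neither. Among all 11795 genes tested, 6.99% fell and 10.2% rose by the same rule (17.2% in either direction). The median log2 fold change of the members was -0.92, and that of all tested genes 0.01. All 10 tumors lay below all 3 glands for 20 members and above them for 4, against 8.53% and 10.7% of tested genes. By an adjusted p below 0.05 alone, 22 members were lower and 4 higher, against 13% and 14.8% of tested genes (27.8% in either direction). The plot of fold changes shows the members group by group.

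**Figure D1:**
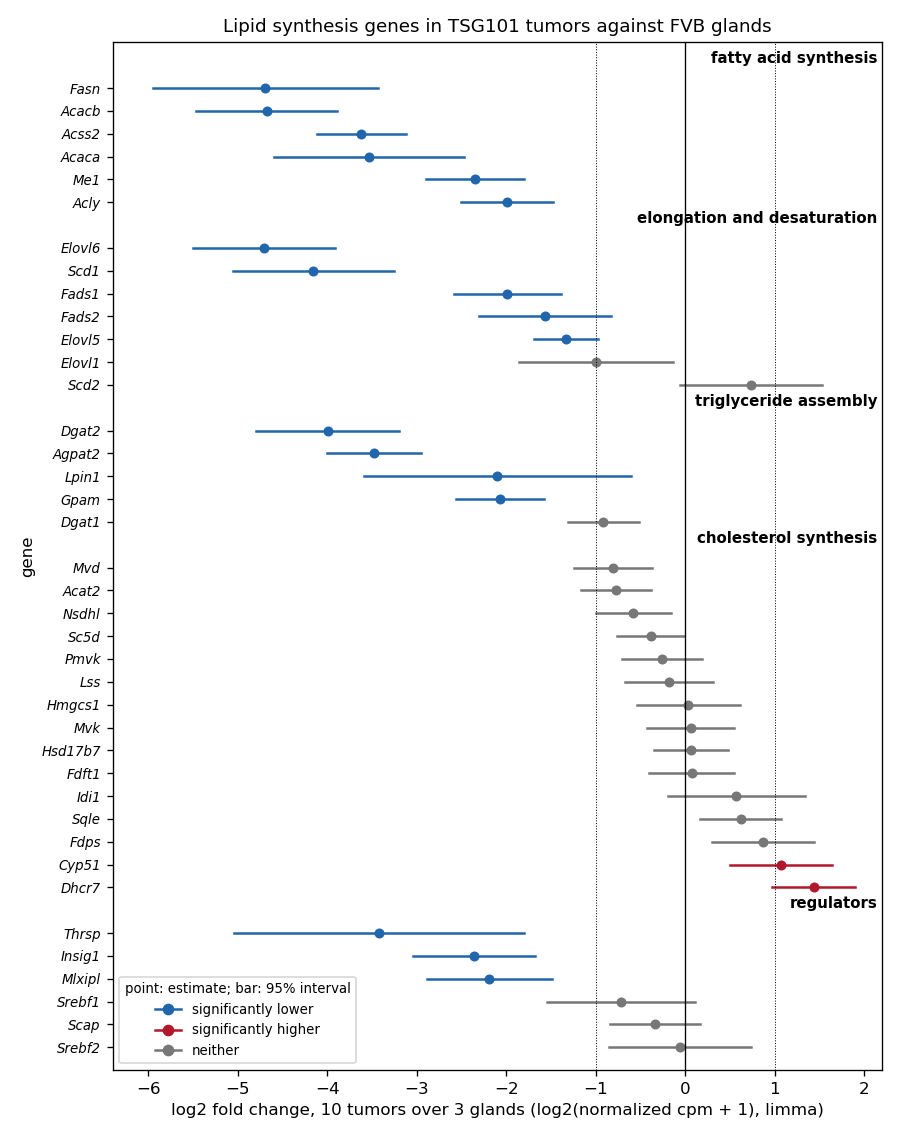
Log2 fold change of each of the 39 genes between 10 tumors and 3 glands on the log2(normalized cpm + 1) scale (x axis), with genes grouped by role on the y axis, points for limma estimates and bars for 95% intervals; dotted lines mark 2-fold. All 6 genes of fatty acid synthesis lie between -4.69 and -1.99, while the 15 genes of cholesterol synthesis lie between -0.80 and 1.43, and the rises of Cyp51 and Dhcr7 did not pass the test when libraries were scaled to epithelial genes.

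These were whole tissues, in which fewer cells of a type and less RNA per cell cannot be told apart. The markers of other cells that moved with the members were as follows. The summed level of 12 genes of secretory alveolar cells and milk was 168642 to 307729 normalized cpm in glands and 1652 to 79159 in tumors, with a tumor median of 9581, and 11 of the 12 fell. The summed level of 16 white adipocyte genes was 5821 to 13602 in glands and 181 to 699 in tumors, and 5 of the 6 that passed the filter fell, or 15 of 16 without the filter, where 10.1% of all 15213 genes fell and 10.5% rose (20.6% in either direction). The summed level of 16 genes of squamous epithelium, by contrast, was 232 to 380 in glands and 1648 to 8334 in tumors, and 15 of the 16 rose without the filter. The filter kept 14 of them, some only through the tumors, where they are high. No marker of these 3 lists was at 0 in all tumors, whereas Ivl, Sprr1b and Dsg3 of the squamous list were at 0 in all glands. Sebaceous gland genes, which mark another fat-making epithelium, summed to 2983 to 4415 in glands and 768 to 2933 in tumors, and of the 5 that passed the filter 2 fell and 1 rose. None of the 39 members was on any of them. Endothelial genes summed to 312 to 758 in glands and 125 to 265 in tumors, and 7 of the 9 fell. Lymphocyte genes summed to 45.9 to 770 in glands and 27.7 to 224 in tumors, and 10 of the 12 fell without the filter, which 2 of them passed. Brown adipocyte genes summed to 144 to 470 in glands and 46.1 to 108 in tumors, with 1 of the 3 that passed the filter lower and 1 higher. Macrophage genes summed to 344 to 362 in glands and 394 to 766 in tumors, and 2 of the 9 that passed the filter rose, as did 6 of 12 proliferation genes. Skeletal muscle genes were high in tumor 4 (2069) and tumor 10 (384) and at 24.9 or less in the other libraries. The part of these cells in the results below was not tested. Of the 22 epithelial genes, 4 rose in tumors and 0 fell. Scaling the libraries to these genes in place of all genes moved the median log2 fold change of all tested genes to -0.67, and under that scaling 26 members fell and 0 rose, where 26.6% of all tested genes fell and 4.81% rose (31.4% in either direction).

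**Figure D2:**
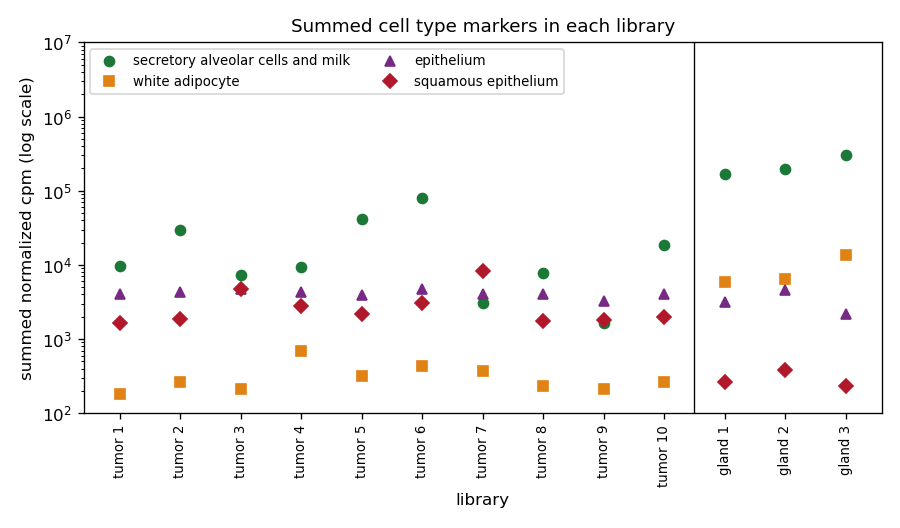
Summed normalized cpm (y axis, log scale) of 4 lists of cell type markers in each of the 10 tumors and 3 glands (x axis). Milk and adipocyte genes are lower in every tumor than in every gland, squamous genes are higher in every tumor, and epithelial genes overlap; tumor 6 holds the highest milk sum among tumors (79159) and tumor 7 the highest squamous sum (8334).

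Fatty acid synthesis was lower in every tumor. All 6 genes of the group fell, with a median log2 fold change of -3.57, and no tumor reached the lowest gland for any of them. Fasn, the fatty acid synthase (chromosome 11, 120805958 to 120825166), ran from 39.4 normalized cpm in tumor 1 over a median of 110 to 461 in tumor 6. The glands stood at 4637, 3459 and 1880. The highest tumor was thus well under the lowest gland, although the tumors themselves spread over more than a log10 unit. Fasn fell by 4.69 on the log2 scale (SE 0.59, limma adjusted p = 3.52e-05), from 3325 ± 1383 in glands (SD, n = 3) to 153 ± 123 in tumors (SD, n = 10). The tumors 8, 9 and 10 of the mouse that gave 3 tumors had Fasn at 161, 40.5 and 172 normalized cpm.

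Both acetyl-CoA carboxylases, which make the malonyl-CoA that Fasn uses, fell. Acaca, the cytosolic form (chromosome 11, 84129635 to 84401651), ran from 15.5 in tumor 9 over a median of 49.0 to 182 in tumor 6, against 725, 690 and 402 normalized cpm in the glands. The next tumor after tumor 6 was at 75.1, and all tumors lay below all glands. Acaca was 11.6-fold lower in tumors (log2 -3.53, SE 0.50, limma adjusted p = 9.82e-05). Acacb, the form at the mitochondrial membrane (chromosome 5, 114146321 to 114250761), ran from 2.94 in tumor 1 over 5.42 to 14.4 in tumor 4, against 290, 197 and 119 in the glands. It fell by 4.68 on the log2 scale (SE 0.37, limma adjusted p = 4.65e-07), which left it among the lowest members in tumors, at 0.734 normalized cpm per kilobase of exon.

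The suppliers of acetyl-CoA and NADPH fell by different amounts. Acss2, which makes acetyl-CoA from acetate, ran from 6.60 over 9.97 to 16.4 normalized cpm in tumors and stood at 163, 114 and 142 in glands, 12.3-fold lower in tumors (log2 -3.62, SE 0.23, limma adjusted p = 7.29e-08). Acly, which makes it from citrate, ran from 175 over 251 to 389 in tumors and stood at 1152, 1078 and 862 in glands, 3.98-fold lower (log2 -1.99, SE 0.24, limma adjusted p = 2.63e-05). The malic enzyme Me1, a source of NADPH, averaged 575 ± 141 in glands (SD, n = 3) and 114 ± 32.0 in tumors (SD, n = 10), with -2.35 on the log2 scale (limma adjusted p = 9.78e-06). Acly and Me1 also spread least within the tumors, where Fasn and Acaca spread most.

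**Figure D3:**
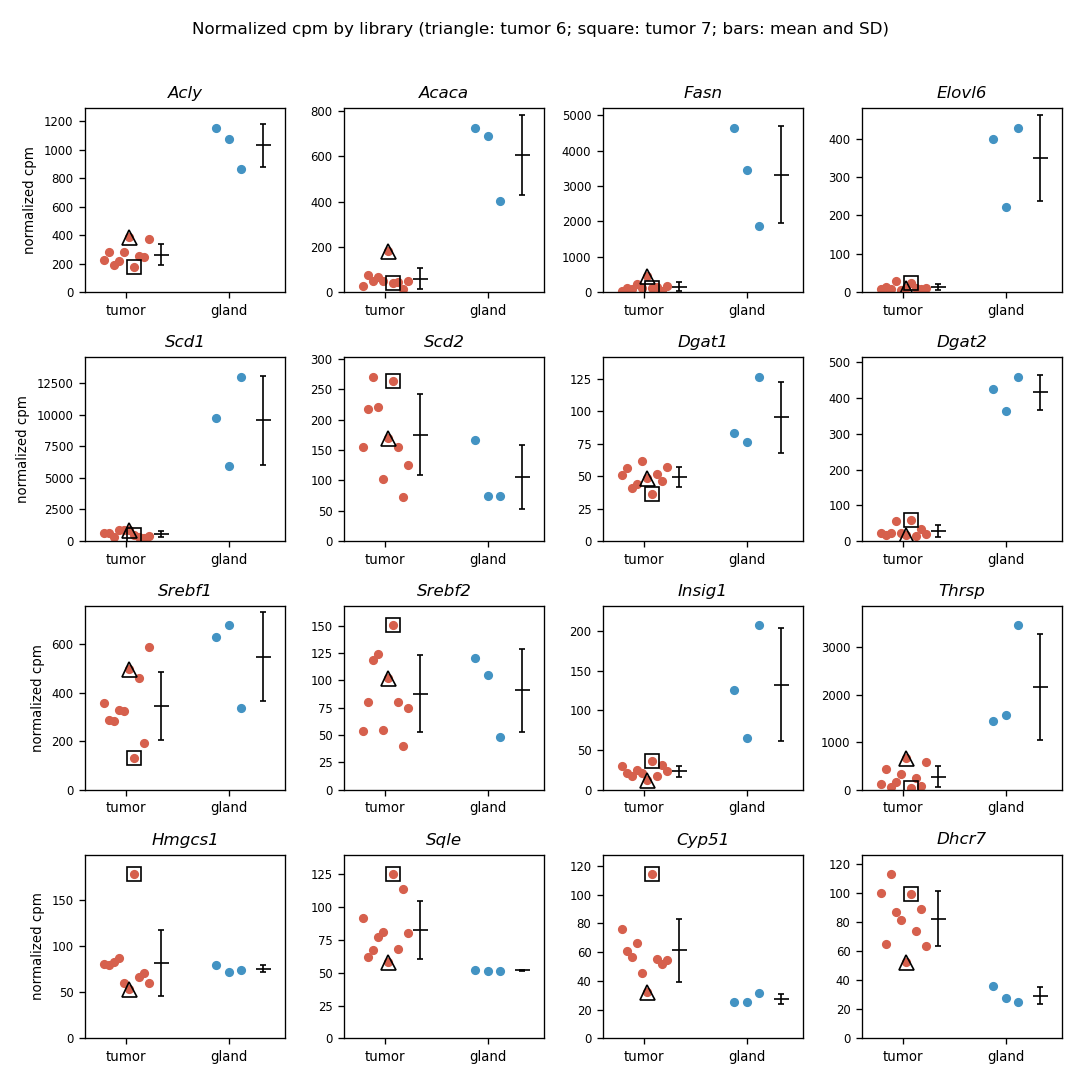
Normalized cpm (y axis, linear from 0) of 16 members in each of the 10 tumors (red) and 3 glands (blue), with bars for the mean and SD of each group, a triangle around tumor 6 and a square around tumor 7. Fasn lies at 39.4 to 461 in tumors and 1880 to 4637 in glands, whereas Hmgcs1 overlaps and reaches 178 in tumor 7; Cyp51 and Dhcr7 are higher in every tumor, but not significantly so for Cyp51 (adjusted p = 0.339) nor beyond 2-fold for Dhcr7 when libraries are scaled to epithelial genes.

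Elongation and desaturation split within gene families. Of the 7 genes, 5 fell and 2 did neither, with a median log2 fold change of -1.57. Elovl6, which extends the palmitate that Fasn releases (chromosome 3, 129532386 to 129638495), ran from 6.95 in tumor 5 over 9.85 to 30.0 in tumor 4, against 399, 221 and 427 in glands. No tumor came near the glands, and it fell by 4.71 on the log2 scale (SE 0.37, limma adjusted p = 4.80e-07), as far as Fasn and Acacb within their errors. Scd1, the stearoyl-CoA desaturase that makes oleate (chromosome 19, 44394450 to 44407709), ran from 262 in tumor 9 over 543 to 903 in tumor 6, against 9718, 5957 and 12984 in glands. All tumors were below all glands, and Scd1 was 17.9-fold lower (log2 -4.16, SE 0.42, limma adjusted p = 5.14e-06). Per kilobase of exon it was nevertheless the most abundant member in glands, at a mean of 1953 normalized cpm per kilobase, and the second in tumors, at 115.

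Scd2, a neighboring desaturase gene on chromosome 19 (44293676 to 44306864), did not follow Scd1. It ran from 72.8 in tumor 9 over 162 to 271 normalized cpm in tumor 3, against 166, 74.6 and 74.9 in glands. All 3 glands lay inside the range of the tumors, and 5 of 10 tumors were above all glands. The log2 fold change of 0.73 had a 95% interval from -0.06 to 1.53 (limma adjusted p = 0.162). Scd1 and Scd2 are similar in sequence and how the counting treated reads that fit both was not given, so their separate levels carry that uncertainty. Among the other elongases, Elovl5, which extends polyunsaturated chains, ran from 48.4 over 70.1 to 87.7 in tumors and stood at 171, 175 and 184 in glands (log2 -1.33, SE 0.17, limma adjusted p = 3.42e-05). Elovl1, an elongase of very long chains, averaged 62.1 ± 26.6 in tumors (SD, n = 10) and 121 ± 48.4 in glands (SD, n = 3), and its log2 fold change of -0.99 had a 95% interval of -1.85 to -0.14 (limma adjusted p = 0.0799). It passed the test without gland 3, without tumor 6 and with scaling to epithelial genes. The front-end desaturases of polyunsaturated fatty acids fell, Fads1 by 1.99 and Fads2 by 1.57 on the log2 scale. For Fads2, 2 of 10 tumors lay above gland 3, which was the lowest gland at 60.3.

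Of the 5 genes of triglyceride assembly, 4 fell and 1 did not pass 2-fold, with a median log2 fold change of -2.10. Gpam, which adds the first acyl chain to glycerol phosphate, ran from 6.96 over 11.7 to 17.4 normalized cpm in tumors and stood at 48.3, 54.0 and 51.7 in glands, a log2 fold change of -2.07 (SE 0.23, limma adjusted p = 1.20e-05). Agpat2, which adds the next, ran from 9.79 to 22.9 in tumors around a mean of 15.6 ± 3.64 (SD, n = 10) and stood at 183, 118 and 269 in glands, a log2 fold change of -3.48 (SE 0.25, limma adjusted p = 1.80e-07). For both genes every tumor was below every gland by a wide margin.

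Lpin1, the phosphatidate phosphatase, was the least even of the group. It ran from 6.66 in tumor 1 over 18.9 to 115 in tumor 6, against 130, 150 and 70.1 in glands, so that tumor 6 overlapped the glands. It fell by 2.10 on the log2 scale (SE 0.70, limma adjusted p = 0.0367). Lpin1 did not pass the test with edgeR (adjusted p = 0.0676) and lost its call in 7 of the 13 fits that left out 1 library. Its adjusted p was 0.134 without gland 1, 0.145 without gland 2, and 0.0513 to 0.0539 without tumor 2, 3, 4, 7 or 9.

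The last step, the transfer of the third acyl chain, is made by unrelated enzymes, and their genes moved by different amounts. Dgat2 (chromosome 7, 99153663 to 99182713) ran from 15.2 in tumor 8 over 21.7 to 58.5 in tumor 7, against 424, 364 and 460 normalized cpm in glands. No tumor approached the glands, and the log2 fold change was -4.00 (SE 0.37, limma adjusted p = 2.58e-06). Dgat1 (chromosome 15, 76502012 to 76512021) ran from 36.1 over 49.9 to 61.9 in tumors and stood at 83.6, 76.1 and 127 in glands. It was also lower in every tumor, but by 1.89-fold, within the 2-fold limit (log2 -0.92, SE 0.18, limma adjusted p = 0.00179). Dgat1 passed 2-fold without gland 2 (log2 -1.06, adjusted p = 0.00275) and with scaling to epithelial genes (-1.60, adjusted p = 4.59e-04).

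A difference between genes within a library depends little on how the library was scaled, apart from the 1 added before the logarithm, which matters for low genes such as Acacb. In this way 5 pairs were compared, of which all but Dgat1 and Dgat2 are relatives in sequence. Scd1 exceeded Scd2 by 6.53 ± 0.80 on the log2 scale in glands (SD, n = 3) and by 1.64 ± 0.85 in tumors (SD, n = 10). In the tumor with the smallest gap the genes were at nearly the same level, with a difference of 0.04. The change of -4.89 had p = 0.0035 in a two-sided exact permutation test over libraries, the smallest p that 10 against 3 allows, and an adjusted p of 0.00583 over the 5 pairs. The tests of the pairs counted the 10 tumors as separate units, although they came from 6 mice. Elovl6 exceeded Elovl5 by 0.92 ± 0.51 in glands and the difference was -2.45 ± 0.75 in tumors, with no overlap (change -3.37, exact permutation adjusted p = 0.00583). Dgat1 minus Dgat2 was -2.14 ± 0.26 in glands and 0.94 ± 0.86 in tumors, so that the order of the pair turned on average, and 10 of 10 tumors lay above all glands (change 3.08, exact permutation adjusted p = 0.00583).

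Acaca minus Acacb was 1.62 ± 0.26 in glands and 2.77 ± 0.65 in tumors, with 9 of 10 tumors above all glands (change 1.15, exact permutation adjusted p = 0.0175). Without gland 1 the change was 1.00 with an exact permutation adjusted p of 0.0947. Srebf1 minus Srebf2 was 2.61 ± 0.21 in glands and 1.95 ± 0.94 in tumors, and the groups overlapped (change -0.66, exact permutation p = 0.262). These pairs set cpm of different genes side by side without a correction for length, which cancels in the change between groups.

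**Figure D4:**
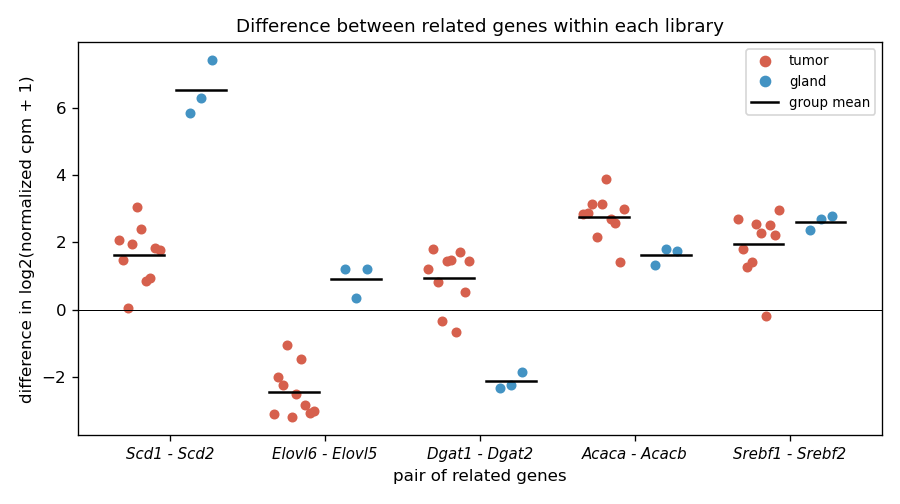
Difference in log2(normalized cpm + 1) between paired genes within each library (y axis) for 5 pairs (x axis), with a point for each of 10 tumors (red) and 3 glands (blue) and a black line for the group mean. The groups do not overlap for Scd1 minus Scd2, Elovl6 minus Elovl5 and Dgat1 minus Dgat2, with changes of -4.89, -3.37 and 3.08, and overlap for Srebf1 minus Srebf2.

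Of the 15 genes of cholesterol synthesis, 2 rose, 0 fell and 13 did neither, and the median log2 fold change was 0.06. The count of 2 is near the share of all tested genes that rose, 10.2%. With scaling to epithelial genes 0 rose and 4 fell (Acat2, Mvd, Nsdhl and Sc5d), at a median of -0.63, close to the 26.6% of all tested genes that fell and their median of -0.67. Dhcr7, a reductase that acts late on the way to cholesterol (chromosome 7, 143823167 to 143848410), ran from 52.2 in tumor 6 over 84.3 to 113 in tumor 3, against 36.0, 27.5 and 24.9 normalized cpm in glands. All tumors were above all glands, and it was 2.70-fold higher (log2 1.43, SE 0.22, limma adjusted p = 1.75e-04). Cyp51, the lanosterol demethylase (chromosome 5, 4080674 to 4104697), ran from 32.4 in tumor 6 over 55.9 to 114 in tumor 7, against 25.4, 25.0 and 31.6 in glands. Its lowest tumor stood barely above the highest gland, and it was 2.10-fold higher (log2 1.07, SE 0.27, limma adjusted p = 0.00771). Without tumor 7 the log2 fold change of Cyp51 was 0.97, within 2-fold, at an adjusted p of 0.00389. With the libraries scaled to epithelial genes, Dhcr7 was higher by 0.75 (adjusted p = 0.0311) and Cyp51 by 0.39 (adjusted p = 0.339), both within 2-fold.

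Between these genes and the start of the pathway the differences were small and of both signs. Sqle, the squalene epoxidase, ran from 58.1 over 78.5 to 125 in tumors and stood at 52.2, 51.5 and 51.6 in glands, which were closer to each other than for any other gene of the group. All tumors were above all glands, by 1.54-fold on average (log2 0.62, SE 0.21, limma adjusted p = 0.0431), although scaling to epithelial genes turned the sign (-0.07). Fdps, the farnesyl diphosphate synthase, averaged 26.3 ± 10.9 in tumors (SD, n = 10) and 13.2 ± 1.84 in glands (SD, n = 3) with no overlap, 1.83-fold higher (adjusted p = 0.0245). Its log2 fold change was 1.00 when the tumors of a mouse were averaged, past 2-fold, and 0.19 with scaling to epithelial genes (adjusted p = 0.602). In the other direction, all tumors were below all glands for Acat2, the acetoacetyl-CoA thiolase (1.71-fold, adjusted p = 0.00518), for Mvd, the mevalonate diphosphate decarboxylase (1.75-fold, adjusted p = 0.00874), and for Nsdhl, a sterol dehydrogenase (1.49-fold, adjusted p = 0.0384).

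The remaining 8 genes of the group, among them Hmgcs1, Mvk, Fdft1, Lss and Hsd17b7, had log2 fold changes from -0.39 (Sc5d) to 0.57 (Idi1) and adjusted p-values from 0.119 to 0.936. Hmgcs1, which makes HMG-CoA, ran from 53.9 in tumor 6 over 75.3 to 178 in tumor 7, against 79.4, 72.3 and 73.6 in glands. The glands lay in the middle of the tumors, and the log2 fold change of 0.04 had a 95% interval from -0.54 to 0.62. The intervals of Mvk, the mevalonate kinase (-0.43 to 0.55), and Fdft1, the squalene synthase (-0.41 to 0.55), were of like width. None of these 3 intervals reached 2-fold in either direction. Idi1, the isopentenyl diphosphate isomerase, had a wider interval (-0.19 to 1.34). Under scaling to epithelial genes Hmgcs1, Mvk, Idi1, Fdft1 and Hsd17b7 had negative values.

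Of the 6 regulators, 3 fell, 0 rose and 3 did neither, with a median log2 fold change of -1.45. Insig1, the sterol-regulated anchor (chromosome 5, 28071412 to 28078662), ran from 12.5 in tumor 6 over 22.3 to 35.7 in tumor 7, against 126, 64.6 and 207 normalized cpm in glands. It fell 5.13-fold (log2 -2.36, SE 0.32, limma adjusted p = 6.89e-05), with no overlap between the groups. Mlxipl, which encodes the carbohydrate-response factor ChREBP, ran from 4.496 over 10.2 to 16.6 in tumors and stood at 49.3, 31.1 and 57.8 in glands (log2 -2.19, SE 0.33, limma adjusted p = 1.63e-04). Thrsp, the small lipogenic protein Spot 14 (chromosome 7, 97412933 to 97417550), ran from 39.6 in tumor 7 over 201 to 660 in tumor 6, against 1454, 1582 and 3462 in glands. Its tumors spread widely and still did not reach the glands, and it fell by 3.42 on the log2 scale (SE 0.76, limma adjusted p = 0.00352). Per kilobase of exon Thrsp was the most abundant member in tumors, at a mean of 123 normalized cpm, and the second in glands, at 989.

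The SREBP genes and Scap did not pass the test with the authors' scaling. Srebf1 (chromosome 11, 60199084 to 60224186) ran from 130 in tumor 7 over 328 to 590 in tumor 10, against 629, 678 and 338 in glands. Gland 3 lay among the tumors, and the log2 fold change of -0.72 had a 95% interval from -1.54 to 0.11 (limma adjusted p = 0.190). Srebf2 (chromosome 15, 82147269 to 82205379) ran from 40.1 in tumor 9 over 80.3 to 150 in tumor 7, against 120, 105 and 48.3 in glands. The groups overlapped through most of their range, with a log2 fold change of -0.06 and an interval from -0.85 to 0.74 (limma adjusted p = 0.929), and the sign turned when any of 5 libraries was left out. Scap ran from 54.6 over 82.8 to 95.5 in tumors and stood at 121, 134 and 58.1 in glands (log2 -0.34, interval -0.84 to 0.17, limma adjusted p = 0.319). With scaling to epithelial genes, Srebf1 (log2 -1.40, adjusted p = 0.00446) and Scap (-1.02, adjusted p = 1.11e-04) passed as lower. The gene values describe mRNA and hold nothing on the cleavage that activates SREBP proteins.

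Within the tumors, most genes of cholesterol synthesis and of fatty acid synthesis peaked in different libraries. Tumor 7 held the highest tumor value of 13 of the 15 genes of cholesterol synthesis, as well as of Srebf2, Insig1 and Dgat2, and the lowest of Srebf1, Thrsp, Acly and Dgat1. The median of the 15 genes relative to the gland means was 0.71 on the log2 scale in tumor 7 and between -0.31 and 0.15 in the other 9 tumors. Tumor 6 held the highest tumor value of 4 of 6 genes of fatty acid synthesis and 4 of 7 of elongation and desaturation, and the lowest of 5 genes of cholesterol synthesis. The median of the 6 genes of fatty acid synthesis was -2.56 in tumor 6 and -4.56 in tumor 9, the extremes of the group. Tumor 9 held the lowest tumor value of 14 of the 39 members. Tumor 6 also had the highest summed milk genes (79159) and tumor 9 the lowest (1652), with the highest share of Rn45s, while tumor 7 had the highest summed squamous genes (8334), and their part in this order was not tested. Without tumor 7 the count of members that rose was 1 in place of 2.

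**Figure D5:**
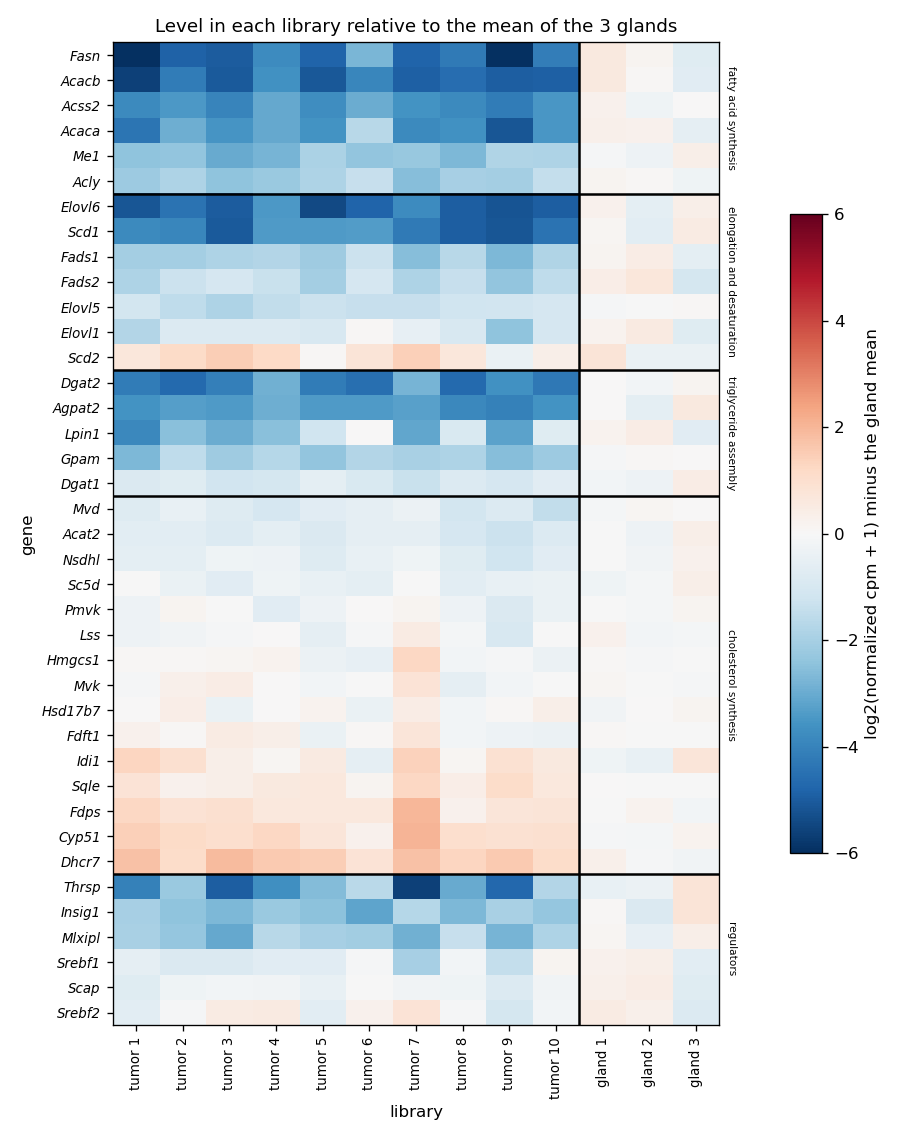
Level of each of the 39 genes (y axis, grouped by role) in each of 13 libraries (x axis) as log2(normalized cpm + 1) minus the mean of the 3 glands, with blue below and red above the glands. Fatty acid synthesis is blue in all 10 tumors, and the column of tumor 7 is the reddest in cholesterol synthesis, where the median of the 15 genes is 0.71; scaled to epithelial genes, no member rose.

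The glands also differed from each other. Gland 3 was the highest gland for 17 of the 39 members and the lowest for 14, and it held the highest summed adipocyte and milk genes. Fasn and Acaca were lowest in gland 3 (1880 and 402 normalized cpm), whereas Scd1, Insig1 and Thrsp were highest there (12984, 207 and 3462). With 3 glands, 1 library could carry much of the spread of that group, and leaving out each gland or tumor in turn left between 17 and 19 members lower.

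Among the genes whose values across all 13 libraries were most like those of Fasn were Acaca (r = 0.979) and Pnpla2, a triglyceride lipase (r = 0.976), by Pearson correlation of log2 values. The libraries fall into tumors and glands, so these values mostly describe that difference. Over the 10 tumors alone they were 0.896 and 0.934. Fasn, Acaca and Pnpla2 were all highest in tumor 6 among tumors, and Pnpla2 is also on the white adipocyte list.

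Further genes of the same pathways, outside the 39, were read from lists of each branch. With the authors' scaling, 6.99% of all tested genes fell and 10.2% rose. Of 18 other genes of fatty acid synthesis that passed the filter, 8 fell and 0 rose, led by Olah, the thioesterase that ends milk fatty acid chains early and is also on the milk list (log2 -3.76), and Acsl1, a long-chain acyl-CoA synthetase (-3.38). Of 12 other genes of triglyceride assembly, 5 fell and 1 rose, with Gpd1, which makes glycerol phosphate, at -4.68, Gpat3 at -2.17 and Lpin2 at 1.02. With scaling to epithelial genes these lists had 15 of 18 and 7 of 12 genes lower and 0 higher, against 26.6% of all tested genes lower. Of 8 other genes of elongation and desaturation, 1 fell, Fads3 at -1.16, and 1 rose, Elovl4 at 5.80 (3 and 1 with scaling to epithelial genes). Elovl4, which makes very long chains found in skin, went from 0.837 ± 0.263 normalized cpm in glands (SD, n = 3) to 116 ± 74.7 in tumors (SD, n = 10). Its gland values, 0.642 to 1.14, were under the filter of 5. It thus passed the filter only through the tumors, where it is high.

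Of 9 other genes of cholesterol synthesis, 3 rose and 0 fell, where 10.2% of all tested genes rose and 6.99% fell. Among the 3 was Msmo1, a sterol methyl oxidase (log2 1.70, limma adjusted p = 0.0027). Msmo1 was also highest in tumor 7. With scaling to epithelial genes 1 of the 9 rose, against 4.81% of all tested genes. Of 15 genes of sterol uptake and efflux, 3 fell and 0 rose, among them Scarb1, the HDL receptor (-1.92), and Lipa, the lysosomal lipase (-1.28). Of 17 other regulators, 1 fell, Nr1h3, which encodes the sterol receptor LXR alpha (-1.27), and with scaling to epithelial genes 5 of 17 fell, as did 5 of 15 genes of uptake and efflux, near the 26.6% of all tested genes. Pparg, the adipocyte regulator, was removed by the filter and in the fit without it had a log2 fold change of -3.89.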

How the data were processed

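Total RNA of 10 tumors and 3 glands was sequenced as paired-end reads. The authors mapped them to mm10 and counted them per gene with featureCounts, and per the labels and methods normalized the counts per library; the strand setting was not given in the sources used here. The deposited values are a normalized signal (normalized cpm), and all values (100%, tolerance 0.01) were whole numbers of reads times a constant of the library, so read counts were recovered and give the depth; each library's floor of 3 reads was 0.128 to 0.683 normalized cpm. Genes at 5 normalized cpm or less in more than 50% of libraries were not tested.

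Tests ran on log2(value + 1) with limma 3.58.1 (R 4.3.3) with a trend on mean expression and Benjamini-Hochberg adjustment over all 11795 genes; fold changes on this scale understate changes of low genes. Significance meant an adjusted p below 0.05 and more than 2-fold. Pairs of genes for like reactions were tested by exact permutation. The scripts were tested on simulated data. Several tumors came from 1 mouse and are not independent animals, so p-values in part measure the spread within a mouse. edgeR 4.0.16 and DESeq2 1.42.0 on the recovered reads, TMM scaling, scaling to epithelial genes, a pseudocount of 0.25, no filter, a block for the mouse, averaging by mouse, a replicate block and leaving out each library were the alternatives. Per kilobase values used the merged exons of GENCODE M21. Gene spans are those of RefSeq on GRCm38.p6, matched by Entrez identifier. Full values were given for the largest falls and rises of each group, the most abundant members, the pairs and the regulators, and other lists by their counts and at most 2 genes each way, of which some are not reported here. Members, lists and tests were chosen with earlier results of these data known.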

Additional observations from a re-analysis of the deposited data

Results flagged for a closer look

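Among the 39 members, each tested for a tumor far from the other 9, 1 stood out. Hmgcs1 was at 178 normalized cpm in tumor 7 and at 87.4 in the next tumor, and on the log2 scale this gap was 0.597 of the whole range of the tumors, above the critical value of 0.466. Chance takes about 1 of 20 groups past the critical value, and 39 were looked at. Without tumor 7 the log2 fold change of Hmgcs1 was -0.10.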

How the results depend on the processing

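Of the 18 members that fell, 17 did so under every alternative other than the replicate block, the exception being Lpin1. DESeq2, TMM scaling, a pseudocount of 0.25, no filter and a block for the mouse (consensus correlation 0.0477) gave the same 20 member calls, and edgeR gave them all but Lpin1. Without the filter 1538 of all genes were lower. Leaving out each library in turn gave 1003 to 1537 genes higher and 658 to 1123 lower, 17 to 19 members lower and 1 to 2 higher, 1 to 2 genes of cholesterol synthesis higher, and a change of Acaca minus Acacb of 1.00 to 1.30. Scaling to epithelial genes gave 567 genes higher and 3141 lower, 0 members and 0 genes of cholesterol synthesis higher, 4 genes of cholesterol synthesis and 5 regulators lower, and turned the sign of Hmgcs1 (-0.65), Mvk (-0.63), Idi1 (-0.11), Fdft1 (-0.61), Sqle (-0.066) and Hsd17b7 (-0.62), which follows from the shift of the median of all genes to -0.67. With 1 library left out, Hmgcs1 ran from -0.096 (without tumor 7) to 0.093, Mvk from -0.024 (without tumor 7) to 0.13, Hsd17b7 from -0.049 (without gland 1) to 0.15 and Srebf2 from -0.46 (without gland 3) to 0.19 (without gland 1), with values above 0 also without gland 2, tumor 1, tumor 5 or tumor 9. Srebf2 was 0.078 with the tumors of a mouse averaged.

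The replicate block, in which the numbers 1 to 3 alone occur in both groups and which leaves 2 residual degrees of freedom, gave 362 genes higher and 182 lower, 13 members lower, 0 members and 0 genes of cholesterol synthesis higher, 2 genes of elongation and desaturation lower and 1 regulator lower. Deviations of libraries with the same number had correlations of -0.579, 0.0447 and -0.664, so the numbers do not pair the libraries, and these counts rest on few residual degrees of freedom. The log2 fold changes of calls lost there remained beyond 2-fold, with Cyp51 at 1.20, Dhcr7 at 1.60, Insig1 at -2.37, Thrsp at -3.74, Elovl5 at -1.49, Fads1 at -1.96 and Fads2 at -1.40.

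Reads limit little here, since every member had at least 23 reads in every library. The number of glands, 3, limits the precision, as do the mice, 6, behind the tumors. The place of sequencing, the stage of the glands and the makeup of the tissues cannot be told apart from the groups.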
